A study of Mus musculus with 9 samples.

Results

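The genes described here are the secreted antagonists of Wnt signaling, which act outside the cell. They were found by gene symbol: the Dickkopf genes Dkk1, Dkk2, Dkk3 and Dkk4, the secreted Frizzled-related genes Sfrp1, Sfrp2, Sfrp4, Sfrp5 and Frzb (also called Sfrp3), and Wif1, Wnt inhibitory factor. These are 10 of the 54532 genes in the deposited table. RNA-seq was done on the lambdoidal junction of C57BL/6J mouse embryos, the region where the maxillary prominence abuts the nasal prominences and where the upper lip and primary palate are formed. The stages E10.5, E11.5 and E12.5 had 3 libraries each. Each library was a pool of tissue from several embryos, and no treatment or genetic change is given for any group, so the groups are told apart by stage alone.

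Wnt ligands bind a Frizzled receptor together with Lrp5 or Lrp6, and in the canonical branch this stabilizes beta-catenin, which then works with the TCF/LEF factors on target genes. The secreted Frizzled-related proteins carry a domain resembling the ligand-binding part of Frizzled and bind Wnt proteins, as does Wif1 through its own WIF domain. Dkk1, Dkk2 and Dkk4 bind Lrp5 and Lrp6 instead, alone or together with Kremen proteins, and thereby act on the canonical branch, whereas Dkk3 is a divergent relative. Wnt signaling in the facial prominences is needed for outgrowth and closure of the upper lip.

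Depth was 16581009–20836804 counts per library. Levels within a gene are given as CPM, counts scaled to library size with TMM factors, and levels between genes as the deposited FPKM, which divide by gene length. DEGs were called at an adjusted p-value up to 0.05 and a log2 fold change of 1 or more in either direction. These are also the thresholds of the study, but the study tested with DESeq2. The calls here are from edgeR's quasi-likelihood test unless DESeq2 is named, so they are not the study's own calls. A gene that passed the adjusted p-value alone is said to have risen or fallen without being a DEG. E10.5 replicate 3 stood apart from the other E10.5 libraries: the SD of its log2 CPM difference from them was 0.679, against 0.445 and 0.455 for replicates 2 and 1. Across genes, that difference went with the GC content of the transcript at a Spearman rho of −0.546, against 0.469 and 0.438. Each library was compared with the mean of the other replicates of its stage. The values of replicates 1 and 2 therefore also contain the deviation of replicate 3 and are not independent of it. The facial mesenchyme markers (9 of 9 measured, among them Prrx1, Alx1 and Msx1) summed to 1295 CPM in that library and to 2393 and 2436 CPM in the other E10.5 libraries, and the epithelial markers to 862 CPM against 468 and 535 CPM. The markers of skeletal muscle summed to at most 4.53 CPM in every library.

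Ranked by FPKM, Sfrp2, Sfrp1 and Frzb stood above all other members at E10.5, with 47.9 ± 12.9, 33.9 ± 0.420 and 20.9 ± 6.01 FPKM (SD, n = 3). Dkk3 followed with 6.11 ± 1.20 FPKM. The ranges of neighbours then overlapped from Dkk1 (3.99 ± 0.804 FPKM) through Dkk2 (2.37 ± 1.42 FPKM) and Wif1 (1.04 ± 0.684 FPKM) to Dkk4 (0.90 ± 0.710 FPKM). At E11.5 the order was Sfrp2 (52.3 ± 7.95 FPKM), Frzb (43.5 ± 1.85 FPKM), Sfrp1 (32.7 ± 0.960 FPKM) and Dkk1 (17.8 ± 3.23 FPKM), each separate from the next. Dkk2 (8.80 FPKM), Dkk3 (8.57 FPKM) and Wif1 (7.85 FPKM) came next with overlapping neighbours, and Dkk4 (2.75 FPKM) lay below them. At E12.5, Sfrp2 led with 79.0 ± 8.41 FPKM, and Sfrp1 (31.1 ± 6.81 FPKM) and Dkk1 (31.1 ± 2.96 FPKM) could not be ordered. Frzb (23.8 ± 3.05 FPKM) came after them, ahead of Wif1 (15.1 ± 0.834 FPKM) and Dkk3 (13.4 ± 1.51 FPKM), which overlapped, and of Dkk2 (7.51 FPKM) and Dkk4 (4.50 FPKM). Dkk1 therefore moved from below the tested Frizzled-related genes at E10.5 to the range of Sfrp1 at E12.5.

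**Figure D1:**
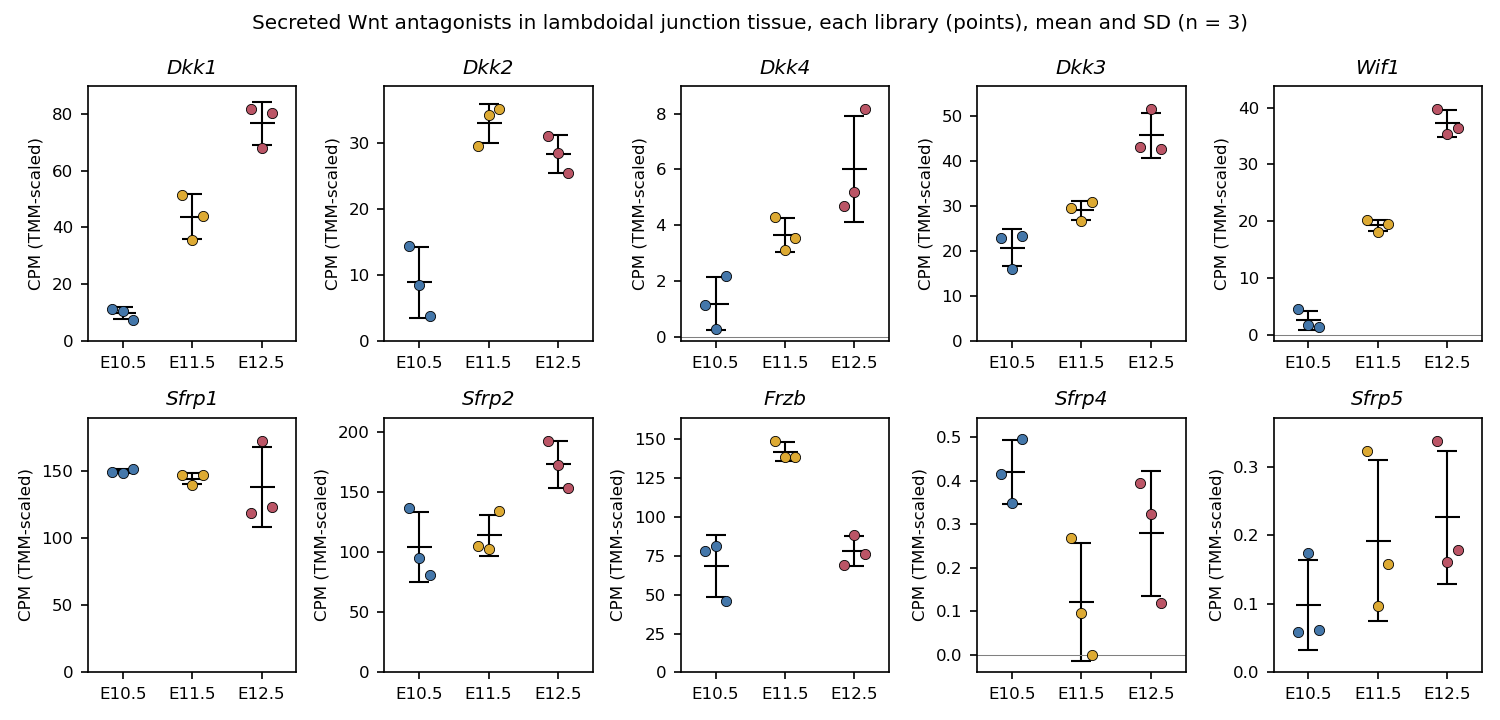
Level of each of the 10 genes in every library, as TMM-scaled CPM (vertical axis, a scale of its own for each gene) by stage; points are libraries, long bars the mean and whiskers the SD of n = 3. Dkk1 and Wif1 step up at each stage, Frzb is highest in the 3 E11.5 libraries (138–149 CPM), and Sfrp4 and Sfrp5 stay under 0.5 CPM.

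In the first interval, E11.5 vs. E10.5, 4 of the 8 members that could be tested were upregulated DEGs (Dkk1, Dkk2, Wif1 and Frzb) and 0 were downregulated, where 3.46% and 2.61% of all 15708 genes tested were DEGs in those directions. The same 4 passed the adjusted p-value alone, as 6.19% of all genes tested did with a rise. The median log2 fold change of the 8 members was 1.34, and that of all genes tested −0.032. The libraries of the 2 stages did not overlap for 7 of the 8 members, against 36.7% of all genes tested. With any 1 of the E11.5 libraries left out, only Dkk1 and Wif1 were still DEGs (2 members), and without E10.5 replicate 3 there were 4 (Dkk1, Dkk2, Dkk4 and Wif1). The count was 5, with Dkk4 added, by DESeq2, with all genes of at least 1 count kept, and in the fit on all 9 libraries. Over all genes, 954 were DEGs with every library kept and 1592 without E10.5 replicate 3. Without E11.5 replicates 1, 2 and 3 there were 395, 663 and 453. DESeq2 gave 1136 of 18080 genes, the fit with all genes of at least 1 count 1208 of 28671, and that on all 9 libraries 1123 of 16375. The facial mesenchyme markers summed to 3621–3957 CPM at E11.5 and 1295–2436 CPM at E10.5, with 3 of 9 upregulated DEGs in this comparison, and the neural and olfactory markers to 147–168 CPM and 284–348 CPM, with 5 of 9 downregulated DEGs. Their part in the members' changes was not tested. In such bulk tissue, more cells of a type and more RNA per cell cannot be told apart.

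In the second interval, E12.5 vs. E11.5, 0 of the 8 members were DEGs by edgeR's quasi-likelihood test, and 0 by DESeq2, where 5.10% of all 15808 genes tested were (4.14% upregulated and 0.962% downregulated). By the adjusted p-value alone, Dkk1, Dkk3, Wif1 and Sfrp2 rose and Frzb fell, 5 of the 8 members against 12.2% of all genes tested (7.61% with a rise and 4.57% with a fall), and 6 members had an unadjusted p-value under 0.05, against 29.6% of all genes tested. The log2 fold changes of these genes lay between −0.87 and 0.95, so they were short of the fold threshold. For 6 of the 8 members the libraries of the 2 stages did not overlap, against 35.3% of all genes tested. The median log2 fold change over the 8 members was 0.62, and 0.019 over all genes tested. The count of 5 became 2 (Frzb and Wif1) without E11.5 replicate 2, 3 (Dkk3, Frzb and Wif1) without E12.5 replicate 1, and 3 (Dkk1, Dkk3 and Frzb) when all 9 libraries were fitted together. The mesenchyme markers summed to 3884–4457 CPM at E12.5, of which 0 of 9 were DEGs against E11.5, and the epithelial markers to 741–803 CPM at E12.5 against 497–518 CPM at E11.5, with 2 of 9 upregulated DEGs. These were Krt5 and Krt14, keratins of stratified epithelium, at 34.5 and 31.3 CPM at E11.5 and 151 and 158 CPM at E12.5, and the median log2 fold change of the 9 markers was 0.022.

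Over the whole span, E12.5 vs. E10.5, the upregulated DEGs were all 4 Dickkopf genes and Wif1, 5 of the 8 members tested, where 9.97% of all 15899 genes tested were upregulated DEGs. None of the 3 Frizzled-related genes tested was a DEG, although Sfrp2 rose by the adjusted p-value alone, which gave 6 of 8 members against 14.0% of all genes tested. For these 6 the E10.5 and E12.5 libraries did not overlap, against 42.4% of all genes tested. The same 5 genes were DEGs without E10.5 replicate 3. The median log2 fold change of the 8 members was 1.41, and that of all genes tested −0.0063. This comparison shares its libraries with both intervals, so the 3 comparisons are not independent of one another.

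**Figure D2:**
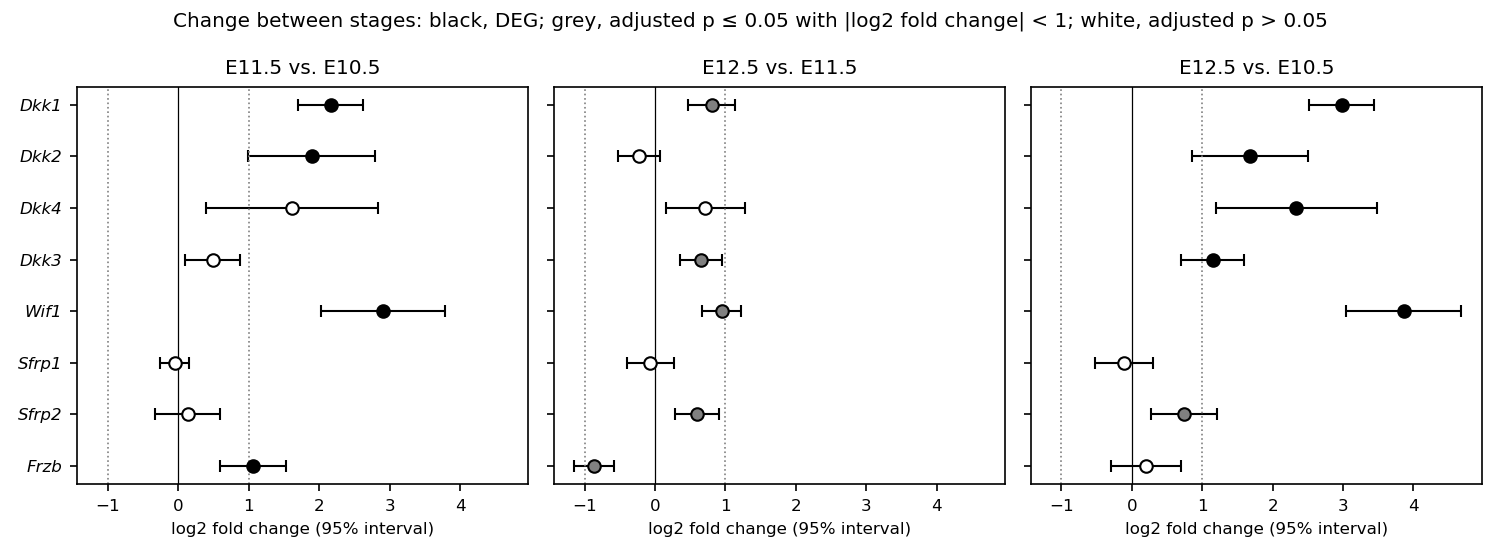
Log2 fold change (horizontal axis) of the 8 tested members in each comparison, with 95% intervals from edgeR; black points are DEGs, grey points passed the adjusted p-value only, white points did not pass, and dotted lines mark −1 and 1. The black points are Dkk1, Dkk2, Wif1 and Frzb in the first panel and the 4 Dickkopf genes and Wif1 in the third, and Sfrp1 lies near 0 in all 3.

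Dkk1 (ENSMUSG00000024868, chr19:30545863-30549665 on the minus strand, GRCm38) encodes the founding Dickkopf protein, which is required for head formation in the mouse. It was measured at 11.2, 10.7 and 7.49 CPM in E10.5 replicates 1, 2 and 3, at 51.5, 35.7 and 43.9 CPM at E11.5, and at 81.6, 68.0 and 80.4 CPM at E12.5. Every E11.5 library was above every E10.5 library and below every E12.5 library. The log2 fold change was 2.16 ± 0.20 (SE) in E11.5 vs. E10.5 (adjusted p = 0.0013, from edgeR's quasi-likelihood test and adjusted by Benjamini-Hochberg over all genes tested, as are all adjusted p-values here). It was 0.81 ± 0.15 in E12.5 vs. E11.5 (adjusted p = 0.00675, and 0.0521 and 0.0504 without E11.5 replicate 2 and E12.5 replicate 1). Across the whole span Dkk1 was 7.88-fold higher at E12.5 (log2 fold change 2.98 ± 0.21, adjusted p = 5.73e-06).

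The RefSeq promoter table (GRCm38.p6) holds a window for 6 of the 10 members, and the sequences below are taken from it. Dkk1 and Frzb are the members with the TCF/LEF core motif, in the form searched, in the 250 bases before the RefSeq start site. The motif searched was CTTTGA on either strand, written TCAAAG where it lies on the opposite strand, and it is in capitals. Other forms of the motif were not searched. In Dkk1 it begins 174 and 117 bases before the RefSeq start site, which itself lies 169 bases inside the gene as the deposited coordinates give it. The first match thus begins 5 bases before that gene's 5′ end, and the second 52 bases inside it.
Dkk1, chr19:30549653-30549682, minus strand: gaggggagagtgTCAAAGtcctccctgctt
Dkk1, chr19:30549596-30549625, minus strand: ctcctcccaaagCTTTGAaatcccatcccg
Frzb, chr2:80447474-80447503, minus strand: tcccctgaaaacTCAAAGccttctcggaag
Of all 32851 promoter windows of this length, 13.8% held the motif at least once and 1.37% held it at least 2 times, as Dkk1 did. Frzb held it once, 95 bases before the RefSeq start site and 134 bases inside the deposited gene, and the windows of Dkk2, Wif1, Sfrp2 and Sfrp5 did not hold these letters. No window was used for Dkk3, Dkk4, Sfrp1 and Sfrp4. A match of 6 letters describes the sequence and does not show that a factor binds there.

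Wif1 (ENSMUSG00000020218, chr10:121033960-121100650 on the plus strand) showed the largest fold change of the members in the first interval and over the whole span. Its levels were 4.52, 1.74 and 1.42 CPM at E10.5, 20.2, 18.1 and 19.4 CPM at E11.5, and 39.8, 35.4 and 36.4 CPM at E12.5. The replicates were close to each other at E11.5 and E12.5, and at E10.5 replicate 1 was well above the other libraries, with 76 counts against 30 and 23. Its log2 fold change was 2.91 ± 0.38 in E11.5 vs. E10.5 (adjusted p = 0.00372) and 0.95 ± 0.13 in E12.5 vs. E11.5 (adjusted p = 0.00096). With upper quartile normalization the second value was 1.00, and Wif1 was then a DEG. At E12.5 the gene was 14.6-fold higher than at E10.5 (log2 fold change 3.87 ± 0.37, adjusted p = 3.93e-05). Without E10.5 replicate 1 the log2 fold changes were 3.60 in the first interval and 4.54 over the whole span.

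Dkk2 (ENSMUSG00000028031, chr3:132085292-132180304 on the plus strand) encodes a Dickkopf protein that can inhibit or, depending on the receptors present, activate the canonical branch. It was found at 14.4, 8.48 and 3.72 CPM at E10.5, at 29.5, 34.2 and 35.1 CPM at E11.5, and at 31.0, 28.5 and 25.3 CPM at E12.5. The E10.5 libraries spread widely, and replicate 3 was the lowest. Its mesenchyme markers were also lowest (1295 CPM), whereas replicates 1 and 2 had similar sums (2393 and 2436 CPM) but differed in Dkk2. A link between Dkk2 and these markers was not tested. The E11.5 and E12.5 libraries overlapped. The log2 fold change was 1.89 ± 0.39 in E11.5 vs. E10.5 (adjusted p = 0.0201), and −0.22 ± 0.14 in E12.5 vs. E11.5 (adjusted p = 0.295), with a 95% interval of −0.52 to 0.075. The first of these was not called without E10.5 replicate 2 (adjusted p = 0.067) or without any 1 of the E11.5 libraries (adjusted p = 0.0713–0.0847). Over the whole span Dkk2 was 3.20-fold higher at E12.5 (log2 fold change 1.68 ± 0.37, adjusted p = 0.0083).

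The sequences before the annotated gene starts of Dkk2 and Wif1 are shown because both genes were DEGs in the first interval. Their windows lacked the letters searched for the TCF/LEF core motif, CTTTGA or TCAAAG. Dkk2 had a TATAAA box on its own strand, in capitals, 32 bases before the start site, which is the same in both annotations. Dkk1 also had one, 54 bases before the RefSeq start site and 115 bases inside the deposited gene. TATAAA on the strand of the gene was found in 7.59% of all promoter windows. For Wif1 the 206 bases up to the gene start are given, and no base is in capitals.
Dkk2, chr3:132085042-132085291, plus strand: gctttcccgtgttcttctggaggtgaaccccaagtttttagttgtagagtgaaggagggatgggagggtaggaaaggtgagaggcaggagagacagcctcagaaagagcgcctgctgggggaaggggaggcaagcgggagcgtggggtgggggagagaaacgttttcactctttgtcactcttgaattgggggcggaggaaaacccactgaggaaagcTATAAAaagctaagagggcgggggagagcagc
Wif1, chr10:121033754-121033959, plus strand: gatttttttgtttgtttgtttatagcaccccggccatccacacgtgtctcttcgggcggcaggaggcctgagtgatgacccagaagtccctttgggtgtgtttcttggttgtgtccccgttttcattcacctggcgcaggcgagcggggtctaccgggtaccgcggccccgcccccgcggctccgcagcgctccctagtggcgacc

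Dkk4 (ENSMUSG00000031535, chr8:22624043-22627547 on the plus strand), known from the placodes of hair and other skin appendages, had the lowest mean FPKM of the tested members at each stage. It had 1.13, 0.29 and 2.17 CPM at E10.5, from 19, 5 and 35 counts. At E11.5 it had 4.30, 3.13 and 3.53 CPM, and at E12.5 4.68, 5.18 and 8.17 CPM. The stages did not overlap, and the E10.5 libraries differed widely among themselves. The log2 fold change in E11.5 vs. E10.5 was 1.62 ± 0.53 and did not pass the test (adjusted p = 0.0905), nor did that in E12.5 vs. E11.5, 0.71 ± 0.25 (adjusted p = 0.0918). Over the whole span Dkk4 was a DEG, 5.05-fold higher at E12.5 (log2 fold change 2.34 ± 0.52, adjusted p = 0.00827). The log2 fold change was 3.08 without E10.5 replicate 3, and the adjusted p-value rose to 0.0499 without E12.5 replicate 3. In the first interval it was also a DEG with DESeq2 (adjusted p = 0.0267), with all genes of at least 1 count kept (adjusted p = 0.0145), in the fit on all 9 libraries (adjusted p = 0.0447) and without E10.5 replicate 3, which had the highest E10.5 level (log2 fold change 2.36).

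Dkk3 (ENSMUSG00000030772, chr7:112116017-112159057 on the minus strand) changed in smaller steps. Its level was 22.9, 16.0 and 23.4 CPM at E10.5, 29.5, 26.7 and 30.9 CPM at E11.5, and 43.1, 51.5 and 42.7 CPM at E12.5. The stages did not overlap. In E11.5 vs. E10.5 its log2 fold change of 0.49 ± 0.17 did not pass the test (adjusted p = 0.105), but the value of 0.58 without E10.5 replicate 3 passed it (adjusted p = 0.00499). The change of 0.65 ± 0.13 in E12.5 vs. E11.5 passed it (adjusted p = 0.0105). Dkk3 was 2.22-fold higher at E12.5 than at E10.5 (log2 fold change 1.15 ± 0.20, adjusted p = 0.00233), and just under the fold threshold (log2 fold change 0.99) without E10.5 replicate 2.

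Frzb (ENSMUSG00000027004, chr2:80411970-80447625 on the minus strand), first isolated from cartilage, was the member with a peak at E11.5. It was measured at 78.1, 81.5 and 45.8 CPM at E10.5, at 149, 138 and 139 CPM at E11.5, and at 69.5, 88.5 and 76.4 CPM at E12.5. All E11.5 libraries lay above all others, and the E10.5 and E12.5 libraries overlapped. Frzb was an upregulated DEG in E11.5 vs. E10.5, 2.08-fold higher at E11.5 (log2 fold change 1.06 ± 0.20, adjusted p = 0.0152), and fell from E11.5 to E12.5 by 0.87 ± 0.13 on the log2 scale (adjusted p = 0.00166). Between E10.5 and E12.5 the log2 fold change was 0.20 ± 0.23 (adjusted p = 0.564), with a 95% interval of −0.30 to 0.70. The call of the first rise was not kept in every fit with 1 library left out. Without E10.5 replicate 3 the log2 fold change was 0.84 (adjusted p = 2.23e-06), under the fold threshold. Without E11.5 replicates 1, 2 and 3 it was 1.03, 1.08 and 1.08, with adjusted p-values of 0.0841, 0.0553 and 0.0663. In the same fits the number of DEGs over all genes also fell, from 954 to 395, 663 and 453.

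Whether a gene changed differently in the second interval than in the first was tested directly, as the change from E11.5 to E12.5 minus that from E10.5 to E11.5 in a fit on all 9 libraries. Of the 8 members, 1 passed (Frzb), where 1.18% of all 16375 genes did and 0.623% did in its direction. For Frzb the difference was −1.92 ± 0.33 on the log2 scale (adjusted p = 0.018). The differences of Dkk2 (−2.11 ± 0.54, adjusted p = 0.0916), Wif1 (−1.95 ± 0.49, adjusted p = 0.0811) and Dkk1 (−1.35 ± 0.31, adjusted p = 0.0598) did not pass, although the 3 genes had smaller log2 fold changes in the second interval. The count moved with the setting: it was 4 (these 3 genes and Frzb) without E10.5 replicate 3, with DESeq2, or with all genes of at least 1 count kept, 3 (Dkk2, Frzb and Wif1) without E10.5 replicate 1, and 0 without E12.5 replicate 1 or any 1 of the E11.5 libraries. The share of all genes called moved too, to 2.59%, 2.61% and 2.32% in the settings with 4 members, 1.33% in that with 3, and 0.291% and 0.160–0.349% in those with 0. The difference of Sfrp2 was 0.48 ± 0.33 (adjusted p = 0.621) and that of Dkk4 −0.90 ± 0.75 (adjusted p = 0.687).

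Sfrp2 (ENSMUSG00000027996, chr3:83766321-83774316 on the plus strand) had the highest FPKM of the members at each stage. Its CPM was 136, 95.5 and 80.8 at E10.5, 105, 103 and 134 at E11.5, and 193, 173 and 154 at E12.5. The E10.5 and E11.5 libraries overlapped, and every E12.5 library was above them. The log2 fold change was 0.13 ± 0.20 in E11.5 vs. E10.5 (adjusted p = 0.716, and −0.021 without E10.5 replicate 3). Sfrp2 rose 1.51-fold from E11.5 to E12.5 (log2 fold change 0.60 ± 0.14, adjusted p = 0.0214) and 1.67-fold over the whole span (0.74 ± 0.21, adjusted p = 0.0278), both short of the fold threshold. The first did not pass without E11.5 replicates 1 or 2 or E12.5 replicate 1 (adjusted p = 0.109, 0.126 and 0.0987), nor in the fit on all 9 libraries (0.0784). The second did not pass without E10.5 replicate 2 or E12.5 replicates 1 or 2 (adjusted p = 0.0977, 0.12 and 0.0624). In the annotation, 16.1% of its exon bases are shared with Gm26771 on the other strand, and the strand setting of the counting is not stated, so reads there cannot be assigned to one of them. The other 9 members share no exon bases with another gene.

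Sfrp1 (ENSMUSG00000031548, chr8:23411502-23449632 on the plus strand), which like Sfrp2 binds Wnt ligands, did not pass the test in any comparison. It was measured at 149.5, 149 and 152 CPM at E10.5, at 147, 139 and 147 CPM at E11.5, and at 119, 172 and 123 CPM at E12.5. The E11.5 libraries were all just below the E10.5 libraries, and the E12.5 libraries were spread on both sides of them. The log2 fold change was −0.053 ± 0.089 in E11.5 vs. E10.5 (adjusted p = 0.746), with a 95% interval of −0.26 to 0.15. It was −0.065 ± 0.15 in E12.5 vs. E11.5 (adjusted p = 0.802), with an interval of −0.40 to 0.27, and −0.11 ± 0.19 in E12.5 vs. E10.5 (adjusted p = 0.715), with an interval of −0.52 to 0.30. A change as large as the fold threshold thus lay outside all 3 intervals.

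Sfrp4 (ENSMUSG00000021319, chr13:19623104-19632994) and Sfrp5 (ENSMUSG00000018822, chr19:42197971-42202252) had too few counts to pass the filter on low values. Sfrp4 had 7, 6 and 8 counts at E10.5, 5, 2 and 0 at E11.5, and 7, 6 and 2 at E12.5. Sfrp5 had 1, 3 and 1 counts at E10.5, 6, 2 and 3 at E11.5, and 6, 3 and 3 at E12.5. Every E11.5 count of Sfrp4 was below every E10.5 count, and the other stages overlapped for both genes. With all genes of at least 1 count kept, neither gene passed in any comparison, and the lowest adjusted p-value was 0.333, for Sfrp4 in E11.5 vs. E10.5. At these counts such a change was not detectable.

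Because the levels of these genes differed widely, the make-up of the antagonist transcripts was also described, as the share of each gene in the summed FPKM of the 10 genes in a library. The summed level was 117 ± 19.2 FPKM at E10.5, 174 ± 10.98 FPKM at E11.5 and 206 ± 9.81 FPKM at E12.5 (SD, n = 3). Of it, the Frizzled-related genes held 87.7% ± 1.42 at E10.5, then 73.8% ± 1.36 and 65.1% ± 2.70, while their own sum was 103 ± 16.9, 129 ± 8.10 and 134 ± 11.8 FPKM. The Dickkopf genes held 11.4% ± 1.34, 21.7% ± 1.24 and 27.5% ± 2.26, and Wif1 held 0.846% ± 0.420, 4.51% ± 0.186 and 7.35% ± 0.533. The FPKM of the Frizzled-related genes was therefore 6.52–8.38 times that of the Dickkopf genes and Wif1 together in the E10.5 libraries, 2.59–2.93 times in the E11.5 libraries and 1.67–2.11 times in the E12.5 libraries, and the stages did not overlap. An exact permutation test of 3 against 3 libraries cannot go below p = 0.1, and none was made of these ratios. The Dickkopf genes and Wif1 are the members that were upregulated DEGs over the whole span. The lower ratio at later stages therefore restates their rise and is not a separate result. Wif1 itself binds Wnt proteins, so this grouping is not one by mechanism.

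Single genes moved within these shares. From E10.5 to E12.5, Dkk1 held 3.39% ± 0.359, 10.2% ± 1.54 and 15.2% ± 2.01. The share of Frzb was 17.7% ± 3.78, 25.0% ± 1.69 and 11.5% ± 1.32 in the same order. Sfrp1, whose level showed no detectable change, went from 29.5% ± 5.15 to 18.8% ± 0.684 and 15.1% ± 2.80 of a growing sum. Sfrp2 held 40.4% ± 4.27, 29.9% ± 3.10 and 38.4% ± 3.12, the largest share at each stage.

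**Figure D3:**
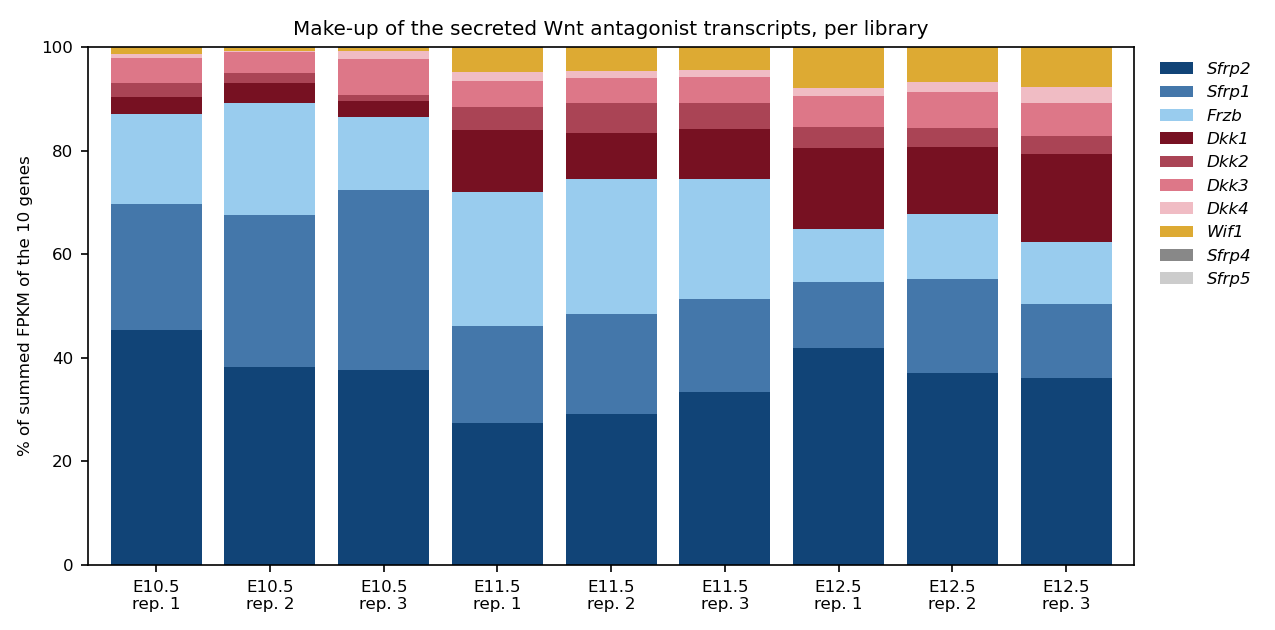
Share of each gene in the summed FPKM of the 10 secreted antagonists (vertical axis, percent), for each of the 9 libraries; Frizzled-related genes are in blue and grey, Dickkopf genes in red and Wif1 in yellow. The blue and grey part takes 86.7–89.3% of the E10.5 bars, 72.2–74.6% of the E11.5 bars and 62.5–67.9% of the E12.5 bars.

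The genes on which the antagonists act were then counted in lists of the pathway. Of the 4 receptors bound by Dickkopf proteins, Kremen2, which shares 9.42% of its exon bases with 9530082P21Rik, was a DEG in E12.5 vs. E10.5, with 10.2 ± 0.520 CPM at E10.5, 15.6 ± 0.979 CPM at E11.5 and 29.0 ± 5.05 CPM at E12.5 (SD, n = 3; log2 fold change 1.51 ± 0.20, adjusted p = 0.000395). Lrp5, Lrp6 and Kremen1 did not pass in that comparison (log2 fold changes −0.31, −0.033 and 0.29), and 0 of the 4 were DEGs in either interval, although Kremen2 rose in both by the adjusted p-value alone (log2 fold changes 0.61 and 0.89, adjusted p = 0.0273 and 0.00457). Of the 10 Frizzled receptors, 2 were upregulated and 3 downregulated DEGs over the whole span, at a median log2 fold change of −0.034. Of all genes tested in that comparison, 9.97% were upregulated and 5.08% downregulated DEGs, which also holds beside the lists that follow. Fzd10 went from 18.5 to 57.6 and 82.6 CPM, and Fzd5, of whose exon bases 17.8% are shared with Gm38058, from 27.8 to 4.82 and 3.04 CPM.

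Of the 19 Wnt ligands, 16 could be tested in E12.5 vs. E10.5, and 8 were upregulated and 0 downregulated DEGs (median log2 fold change 1.16). Wnt5a mostly signals outside the canonical branch and shares 4.58% of its exon bases with Gm2670. It went from 122 ± 8.12 to 402 ± 62.7 and 548 ± 94.2 CPM. In E11.5 vs. E10.5 the ligands had 4 upregulated DEGs and 1 downregulated DEG of 15 tested, and in E12.5 vs. E11.5 they had 5 and 0 of 16, beside the shares of all genes given above for these intervals. In the second interval, Wnt10b went from 4.74 ± 0.600 to 15.0 ± 1.23 CPM (log2 fold change 1.65 ± 0.17, adjusted p = 0.000226) and Wnt16 from 0.571 ± 0.205 to 5.64 ± 0.598 CPM (log2 fold change 3.29 ± 0.30, adjusted p = 0.000127). By the adjusted p-value alone, 7 of the 16 ligands rose in that interval and 0 fell (median log2 fold change 0.82). Of the 8 members, 4 rose and 1 fell by that rule (median 0.62), and of all genes tested 7.61% rose and 4.57% fell.

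Other inhibitors outside the cell or in its membrane showed changes of both signs. Of 13 listed, 12 could be tested in E12.5 vs. E10.5, with 3 upregulated DEGs (Apcdd1, Notum and Draxin), 1 downregulated DEG (Shisa2) and a median log2 fold change of 0.87. Apcdd1, a membrane protein that binds Wnt and Lrp proteins, was found at 40.7 ± 7.77, 192 ± 27.5 and 279 ± 56.4 CPM at the 3 stages (log2 fold change 2.79 ± 0.23 over the whole span, adjusted p = 1.29e-05). Shisa2, of a family that holds Frizzled receptors inside the cell, was found at 74.9 ± 2.45, 29.7 ± 5.46 and 20.1 ± 1.02 CPM (log2 fold change −1.88 ± 0.17, adjusted p = 2.37e-05).

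The 10 genes listed as targets of canonical signaling had 5 upregulated DEGs and 0 downregulated DEGs in E11.5 vs. E10.5 (median log2 fold change 1.14), 0 in E12.5 vs. E11.5 (0.26) and 5 and 0 in E12.5 vs. E10.5 (1.11). In the second interval 3 of them rose and 1 fell by the adjusted p-value alone. Nkd2, an inhibitor inside the cell, was found at 18.9 ± 2.22, 47.0 ± 5.32 and 85.8 ± 8.88 CPM. Axin2, a widely used reporter of the canonical branch, was found at 63.9 ± 9.56, 114 ± 6.15 and 96.7 ± 14.7 CPM. Its log2 fold change was 0.84 ± 0.13 in E11.5 vs. E10.5 (adjusted p = 0.00678), −0.24 ± 0.13 in E12.5 vs. E11.5 (adjusted p = 0.261) and 0.61 ± 0.19 in E12.5 vs. E10.5 (adjusted p = 0.0378). Axin2 was thus not a DEG over the whole span, and it shares 3.80% of its exon bases with Gm11670. Lef1 and Notum, like Nkd2, were DEGs over the whole span, but share 13.7% and 38.1% of their exon bases with other genes.

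**Figure D4:**
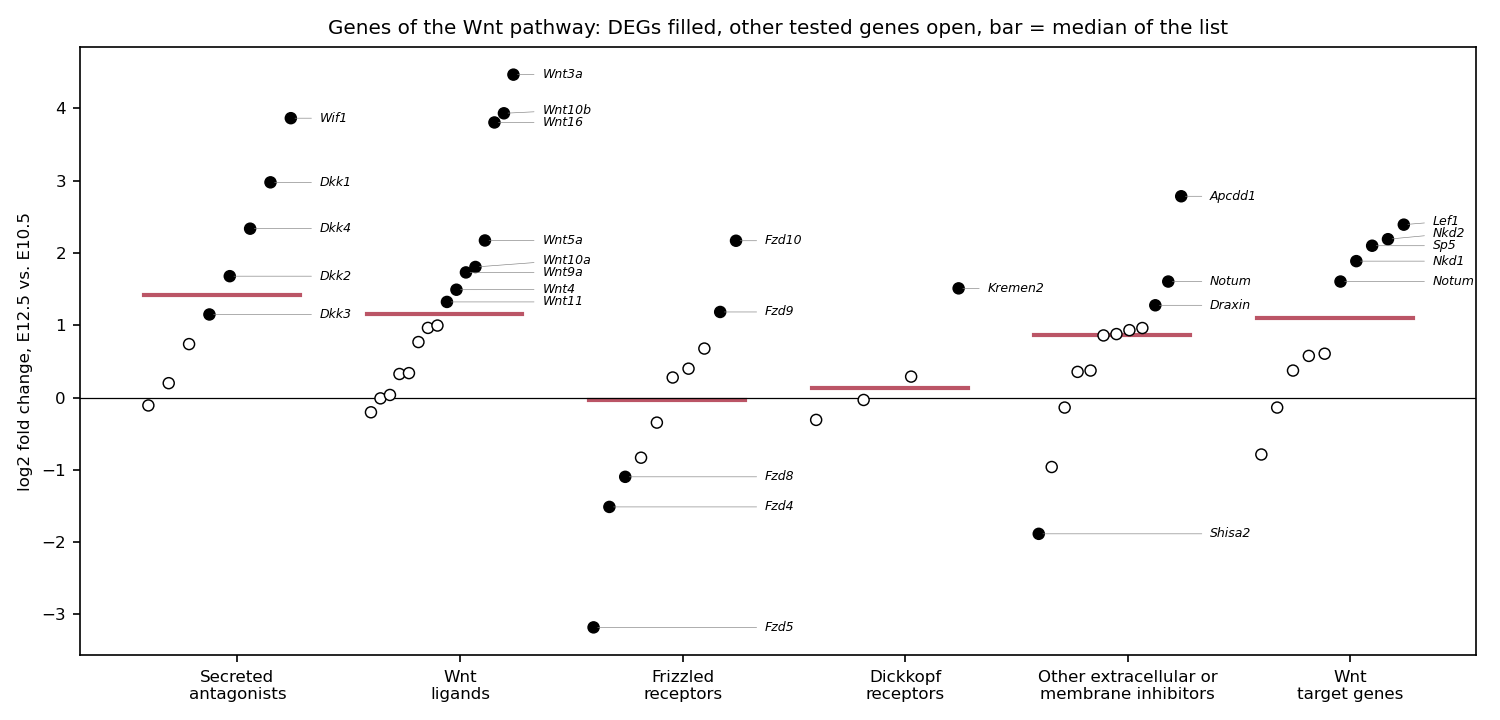
Log2 fold change in E12.5 vs. E10.5 (vertical axis) of every tested gene of the secreted antagonists and of 5 lists of the Wnt pathway (Notum, Rnf43 and Znrf3 are in both lists on the right); filled points are DEGs and are named, open points are other tested genes, and the red bar is the median of the list. The medians are 1.41 for the antagonists, 1.16 for the ligands, −0.034 for the Frizzled receptors, 0.13 for the Dickkopf receptors, 0.87 for other inhibitors and 1.11 for target genes.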

How the data were processed

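The 9 libraries, each from pooled lambdoidal junctions, were mapped by the authors with HISAT2 2.0.5 (GRCm38/mm10), and reads per gene were counted with featureCounts. The count columns of the deposited table hold the authors' whole-number read counts, without normalization, and its FPKM columns the authors' FPKM values, made from those counts and the gene lengths, which are deposited with them. Whether reads were counted by strand, and how reads with several positions were treated, is not given in the sources used here. The table also holds the authors' stage means, log2 fold changes and p-values, which were not used.

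For each comparison of 2 stages, their 6 libraries were fitted with edgeR 4.0.16 in R 4.3.3 (filterByExpr, TMM, quasi-likelihood test), with Benjamini-Hochberg adjustment over all genes tested. SE were derived from the F statistic, as the absolute log2 fold change over its square root, and 95% intervals from the t quantile of the fit. The difference between the intervals was tested on all 9 libraries. CPM used TMM factors computed over the 9 libraries together. The fits were tested on simulated data. Python 3.11.15 was used for the summaries and plots. Replicates are pools of embryos, so p-values measure the spread between pools. A count carries counting error, and no molecular identifiers were used.

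The members, the pathway lists and the marker lists were chosen with earlier results of these data known. Named are all 10 members, genes of the lists that were DEGs in E12.5 vs. E10.5 and, for members called in at least 1 comparison and Sfrp2, the 3 genes of most similar profile, of which some are not reported here. Lrp5, Lrp6, Kremen1, Axin2, Col2a1, Prrx1, Rnf43 and Znrf3 were named outside this rule, after their values were seen. Alternatives were DESeq2's size factors, upper quartile normalization, DESeq2 1.42.0, all genes with at least 1 count, 1 fit of all 9 libraries, a replicate block and each library left out in turn. Removal of the trend with GC content (lowess, span 0.3) and the call by adjusted p-value alone were added after the data had been seen. Promoter windows are from RefSeq (GRCm38.p6), and coordinates from the deposited table, which for the 10 members equal those of GENCODE vM21.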

Additional observations from a re-analysis of the deposited data

Results flagged for a closer look

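Frzb was the 1 member for which the change from E11.5 to E12.5 differed from that from E10.5 to E11.5 by a direct test of the difference. The difference was −1.92 ± 0.33 on the log2 scale (SE; 95% interval −2.62 to −1.21, adjusted p = 0.018 by edgeR over 16375 genes), and its level was higher in 3 of 3 E11.5 libraries than in any other. The facial mesenchyme markers stood at 1295 CPM in E10.5 replicate 3, where Frzb had its lowest level (45.8 CPM), and without that library the difference was −1.74 (adjusted p = 0.00113). It did not pass without E11.5 replicates 1, 2 or 3 (adjusted p = 0.128, 0.0639 and 0.0989) or without E12.5 replicate 1 (adjusted p = 0.0685), and the cause was not tested.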

How the results depend on the processing

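Of the alternative values for single members, 391 kept their direction and their DEG call (for the difference between the intervals, their call by the adjusted p-value), 17 gained it, 13 lost it and 11 changed sign. By the adjusted p-value alone, 287 of 312 values in the pairwise comparisons stayed on their side, 7 newly passed and 18 no longer passed. The sign changes were those of Sfrp2 in E11.5 vs. E10.5 (−0.021 without E10.5 replicate 3, leave-one-out range −0.021 to 0.37), of Sfrp1 in E12.5 vs. E11.5 (−0.26 to 0.036), of Frzb in E12.5 vs. E10.5 (−0.018 without E10.5 replicate 3, range to 0.34) and of the interval difference of Sfrp1 (0.0091 with upper quartile normalization, 0.017 with the GC trend removed, −0.19 to 0.099 with a library left out). These values did not pass the test under any of the settings run. Leaving out 1 library gave 2 to 4 members called in E11.5 vs. E10.5, 0 in each case in E12.5 vs. E11.5, 4 to 5 in E12.5 vs. E10.5 and 0 to 4 for the difference between the intervals. By the adjusted p-value alone it gave 2 to 6 in E11.5 vs. E10.5, 2 to 6 in E12.5 vs. E11.5 and 5 to 6 in E12.5 vs. E10.5. In E12.5 vs. E11.5, upper quartile normalization gave 1 member called in place of 0, and the fit on all 9 libraries gave 3 by the adjusted p-value alone in place of 5. The difference between the intervals was called for 4 members with DESeq2 and for 4 with all genes of at least 1 count, against 1. Fewer samples entered the fits with a library left out. The cause of the shifts was not tested in any of these settings.

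The replicate numbers of the stages were not treated as pairs, because same-numbered and differently numbered libraries had correlations in much the same range. These ran from −0.151 to 0.220 over 9 same-numbered pairs (median 0.022) and from −0.219 to 0.223 over 18 others (median −0.0025). Between E10.5 and E12.5 the same-numbered pairs were all positive, at 0.178, 0.0701 and 0.220. Those between the other stages had both signs. With the replicate block, 2 members were called for the difference between the intervals (Frzb and Wif1) against 1, and it left the counts of the 3 pairwise comparisons at 4, 0 and 5 members. Shares computed from CPM per kilobase were identical to those from FPKM, since the scaling of a library cancels within it. Depth limits Sfrp4 and Sfrp5, with at most 8 and 6 counts in a library, and Dkk4 at E10.5, with 5 to 35.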

Other observations

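Genes were also ranked by how closely their profile over the 9 libraries followed that of a member, as the root mean square difference of centred log2 CPM among 16367 genes. This describes likeness only. For Frzb, genes among the 3 closest were Tril (0.125, at 139, 289 and 182 CPM from the earliest to the latest stage) and Pax7 (0.15, at 61.8, 106 and 70.3 CPM), both highest at E11.5. For Wif1, genes among the 3 closest were Gjb2 (0.239, from 0.872 to 16.7 CPM between E10.5 and E12.5) and Col17a1 (0.339, at 2.07, 22.6 and 44.2 CPM). Gjb2 encodes a gap junction protein and Col17a1 a collagen of the hemidesmosomes that anchor epithelium. For Dkk1 the closest were Cdo1 (0.182, at 24.3, 87.1 and 172 CPM), Kctd12 (0.184, at 34.8, 140.5 and 235 CPM) and Gm27202 (0.188).

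Dkk2 was followed most closely by AI464131 (0.223), Daam2 (0.26, at 44.5, 139 and 133 CPM) and Nbl1 (0.263, at 59.5, 170.1 and 154 CPM), of which Daam2 is a formin of the Wnt pathway and Nbl1 a secreted antagonist of BMP ligands. Dkk3 was followed by Il1rap (0.108), Fam13c (0.114) and Enpp5 (0.12). Dkk4 was followed by Hist1h2bk (0.333), Gm43930 (0.347) and Rtp4 (0.385), all with under 3 CPM at each stage. For Sfrp2 the closest were Vat1 (0.109, at 34.4, 35.7 and 56.7 CPM), Gas6 (0.119) and Numbl (0.125).

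Markers of other cells in the tissue were summed per library as well. Those of cartilage and bone stood at 595–1013 CPM at E10.5, with Matn4 at 0 counts in each E10.5 library, then at 537–621 and 604–796 CPM. Of the 7 tested over the whole span 5 were upregulated DEGs, against 9.97% of all genes tested. Col2a1 stood at 688, 402 and 377 CPM in the order of the stages. It fell over the whole span by the adjusted p-value alone (log2 fold change −0.86 ± 0.24, adjusted p = 0.0253). The erythroid markers stood at 2844–3850, 4598–5017 and 4365–5675 CPM in the order of the stages. The endothelial markers stood at 114–308, 294–308 and 247–314 CPM, with the 114 CPM in E10.5 replicate 3 and 0 of 6 DEGs in each comparison of stages. Their part in the members' changes was not tested.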
